A study of Mus musculus with 281 samples.

Results

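Imprinted genes are expressed mainly from the copy that came from the mother or mainly from the copy that came from the father, and many of them set how much an embryo or a tissue grows. The 10 genes described here, Cdkn1c, Kcnq1ot1, Phlda2, H19, Igf2, Peg3, Meg3, Grb10, Plagl1 and Dlk1, were listed by name out of 47752 genes in the deposited gene table. They were listed after Cdkn1c had been seen to be close to 0 in mutant cells, so the comparison between genotypes is given as a description with no test. Each gene was followed as CPM (counts divided by the total of a cell, per 1000000) across the cell types of the stria vascularis, the epithelium of the cochlear lateral wall that produces the potassium-rich endolymph, and across genotypes of Slc26a4, which encodes the anion exchanger pendrin.

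Single cells were picked from the stria vascularis and read with Smart-Seq2, a full-length method without molecular identifiers. The cells came from Slc26a4+/+ mice (labelled 129S6 wild type, P22 to P42), from Slc26a4+/- mice (40 cells, P26 to P33) and from Slc26a4-/- mice (69 cells, P24 to P44), with Slc26a4+/+ cells making up all the others, and the study's methods put all animals on the 129S6 background and give only males. No label ties a cell to a mouse, and each genotype was therefore treated as 1 sample. Cells were grouped by the number in the profile names that reads as a collection day, with the age, into 37 sessions (23, 4 and 10 for the 3 genotypes), and by run date into 4 batches. All Slc26a4+/- cells were in batch 4, and the Slc26a4-/- cells were in batch 2 (46 cells), batch 4 (22 cells) and batch 1 (1 cell), so that only batches 2 and 4 allow a comparison of genotypes within a run. Cells were freed with collagenase and picked by micropipette, and the allele is lost from the whole animal and not from 1 cell type.

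Clusters were named from fixed markers as intermediate-cell-like (IMC-like; 69 Slc26a4+/+, 23 Slc26a4+/- and 39 Slc26a4-/- cells), spindle-cell-like (SC-like; 23, 2 and 9), root-cell-like (RC-like; 15, 6 and 13) and marginal-cell-like (MC-like; 14, 2 and 5). Intermediate cells are the melanocyte-like cells of the stria, and Kcnj13, Dct and Gpnmb led these clusters, whereas the pigment markers Tyrp1 and Pmel were at or near 0. SC-like and RC-like cells, which are the types known to carry pendrin, are pooled as pendrin cells (38, 8 and 22). A cluster led by Crhbp (11, 4 and 2 cells) and a cluster led by Slc4a1, Mpo and hemoglobin genes (40, 3 and 1) stayed without a cell type name. Depth ran from 1848 to 7932729 counts per cell, 20 cells had fewer than 100000, and the median per cell was 1166720 for Slc26a4+/+ mice, 2221967 for Slc26a4+/- mice and 1226474 for Slc26a4-/- mice. Slc26a4 RNA did not separate the labels, since at least 10 counts were present in 26 of 38 Slc26a4+/+, 4 of 8 Slc26a4+/- and 11 of 22 Slc26a4-/- pendrin cells.

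In background, Cdkn1c encodes p57Kip2, an inhibitor of cyclin-dependent kinases that holds cells out of division and is expressed from the maternal copy. Kcnq1ot1 is a long non-coding RNA made from the paternal copy within Kcnq1, and it keeps Cdkn1c, Phlda2 and other neighbours silent on that chromosome. Igf2 is a paternally expressed growth factor next to the maternally expressed non-coding RNA H19, and Dlk1 and Meg3 form a similar pair. Grb10 is an adaptor that dampens signals of the insulin and IGF receptors, and Peg3 and Plagl1 encode zinc finger proteins. The files hold no alleles, so which parental copy an RNA came from was not measured.

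Cdkn1c lies on chromosome 7, from 143458339 to 143461050 on the minus strand (ENSMUSG00000037664.13, GRCm38, GENCODE M21). Kcnq1ot1 (143203458 to 143296549), Phlda2 (143501545 to 143503150), H19 (142575529 to 142578143) and Igf2 (142650766 to 142666816) lie on the same strand of the same region of chromosome 7, while Peg3 (6703892 to 6730431) is near the other end of that chromosome. Grb10 is on chromosome 11 (11930508 to 12038683, minus strand), Plagl1 on chromosome 10 (13060504 to 13131694, plus strand), and Dlk1 (109452823 to 109463336) and Meg3 (109541001 to 109571726) are on the plus strand of chromosome 12. The RefSeq promoter table held 8 of the 10 genes, and not Cdkn1c or H19. The 250 bases upstream of the Peg3 start and of the starts of the main Grb10 transcripts are printed 5′ to 3′ (GRCm38.p6, minus strand) because, of the 10 listed genes, these had the most counts besides Cdkn1c, with each CG dinucleotide, the site of the DNA methylation that marks imprinted copies, in capitals. CG reads the same on both strands, and methylation was not measured.
Peg3, chr7:6730420-6730669: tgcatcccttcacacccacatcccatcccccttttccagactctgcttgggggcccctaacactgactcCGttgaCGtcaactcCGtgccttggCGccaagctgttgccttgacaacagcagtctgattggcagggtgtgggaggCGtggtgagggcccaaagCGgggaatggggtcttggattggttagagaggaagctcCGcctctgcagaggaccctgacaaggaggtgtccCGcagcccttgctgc
Grb10, chr11:12037421-12037670: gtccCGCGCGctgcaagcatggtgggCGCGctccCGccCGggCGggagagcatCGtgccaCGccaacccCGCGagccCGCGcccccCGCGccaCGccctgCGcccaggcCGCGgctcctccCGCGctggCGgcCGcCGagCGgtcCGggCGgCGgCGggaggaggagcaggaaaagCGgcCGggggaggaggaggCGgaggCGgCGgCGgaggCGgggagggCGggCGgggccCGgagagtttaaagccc
Grb10, chr11:12027972-12028221: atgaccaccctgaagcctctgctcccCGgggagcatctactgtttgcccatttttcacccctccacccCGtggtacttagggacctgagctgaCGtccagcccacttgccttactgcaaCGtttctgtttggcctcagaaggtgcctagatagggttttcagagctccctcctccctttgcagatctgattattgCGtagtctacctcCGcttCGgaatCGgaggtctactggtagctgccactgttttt
The upstream Grb10 start had 40 CG in 250 bases, and 1.31% of the 32851 promoters in the table had as many. The inner Grb10 start and the Peg3 start had 8 CG each, and 43% of the promoters had as many, against a median of 6.

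Of the 10 genes, 7 had transcripts that were quantified, and 4 had at least 10 counts in at least 10 cells. These 4 were Cdkn1c (11085 counts in all cells, at least 1 count in 53 cells and at least 10 in 32), Peg3 (14837 counts, at least 10 in 32 cells), Grb10 (9458 counts, 71 and 46 cells) and Igf2 (1385 counts, 66 and 19 cells). Kcnq1ot1, H19 and Meg3 stand in the gene table at 0 in all cells, but none of their transcripts is among the 98492 transcripts of the profiles, so this 0 is not a measurement. The same holds for nearly the whole class, as 95 of 6403 long non-coding RNA genes in the table had a quantified transcript and 6337 of them (98.97%) were at 0 in all cells, against 22.2% of 21156 protein-coding genes. Phlda2, a regulator of placental growth, had 3 quantified transcripts and 0 counts in any cell.

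Cdkn1c RNA was an all-or-little measurement in single cells. In Slc26a4+/+ mice, 24 cells (14.0%, exact binomial 95% interval 9.15% to 20.0%) had at least 10 counts and 35 had any count. Here and below the intervals of shares cover counting error of cells only, and counts are amplified reads and not independent molecules. The 7 IMC-like cells with at least 10 counts held between 69.9 and 374 CPM, the 4 SC-like cells between 125.01 and 230.7 CPM, the 5 RC-like cells between 95.5 and 490 CPM and the only MC-like cell 120 CPM. The median cell was at 0 in each of these types, and a mean level of Cdkn1c therefore states how many cells carried it as much as how much they carried.

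**Figure D1:**
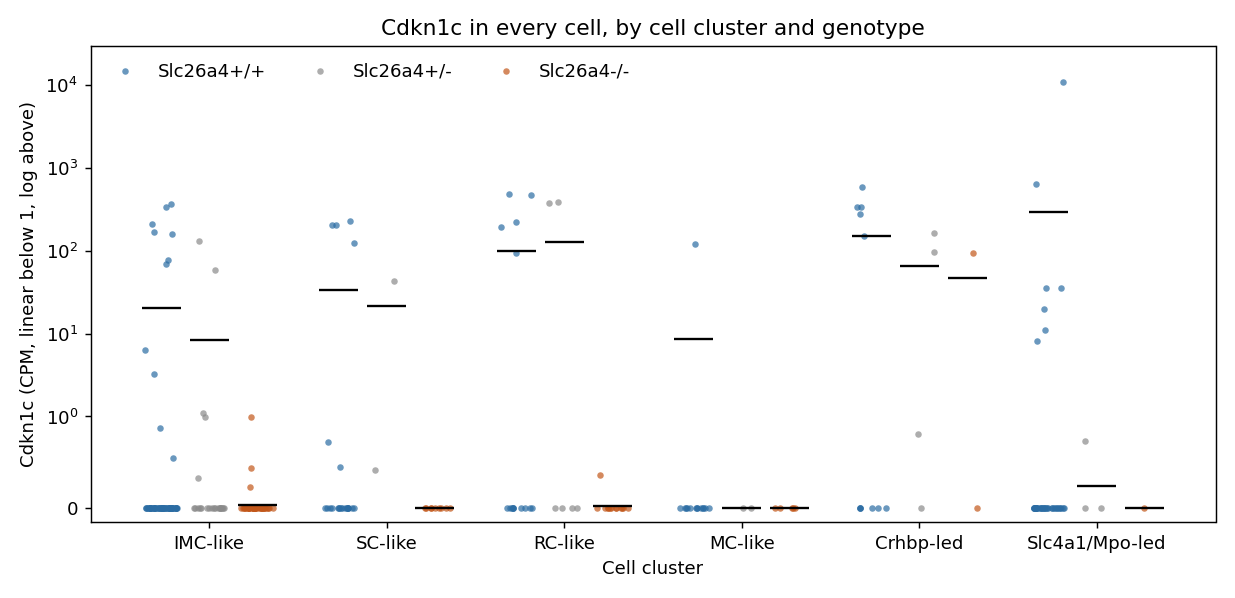
Cdkn1c in single cells. Each point is 1 cell, placed by its cluster (horizontal axis) and its CPM (vertical axis, linear below 1 and logarithmic above), colored by genotype, and the black line is the mean of the group. Cells with at least 10 counts stand between 42.8 and 646 CPM, apart from 1 cell at 11052 CPM, and belong to Slc26a4+/+ and Slc26a4+/- mice except for 1 Slc26a4-/- cell of the Crhbp-led cluster at 94.5 CPM, the only cell of its genotype above 1 CPM.

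Among the named types of Slc26a4+/+ cells, the mean level per transcript length was highest in RC-like cells, at 146.5 TPM (a unit that, unlike CPM, divides by transcript length), followed by SC-like cells at 44.2 TPM, IMC-like cells at 24.5 TPM and MC-like cells at 9.69 TPM. The share of cells with at least 10 counts had the same order, with 5 of 15 RC-like cells (33.3%, 11.8% to 61.6%), 4 of 23 SC-like cells (17.4%, 4.95% to 38.8%), 7 of 69 IMC-like cells (10.1%, 4.18% to 19.8%) and 1 of 14 MC-like cells (7.14%, 0.181% to 33.9%). These intervals overlap for each pair of neighbours in the order and for its ends, and session means ranged from 0 to 490 CPM within RC-like cells alone. The Crhbp-led cluster, which has no cell type name, had Cdkn1c in 5 of 11 Slc26a4+/+ cells at a mean of 157.2 TPM. The cluster led by Slc4a1 and Mpo had a mean of 295.2 CPM that rests on 1 cell with 11052 CPM, a cell of only 10134 counts in all.

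In Slc26a4-/- mice, Cdkn1c was near 0 in each named cell type. At least 10 counts were present in 0 of 39 IMC-like cells (a count of 0 allows a share of up to 7.69%), 0 of 22 pendrin cells (up to 13.6%) and 0 of 5 MC-like cells. The mean level was 0.04 CPM in IMC-like cells, against 20.5 CPM in Slc26a4+/+ cells, and 0.02 CPM in pendrin cells, against 59.2 CPM. On the log2 (CPM + 1) scale, which understates differences of low genes, the Slc26a4-/- mean was below the Slc26a4+/+ mean by 4.37 in IMC-like and by 5.89 in pendrin cells. The label of a gene near absent from mutant cells does not hold for the heterozygotes, which are described next.

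The counts behind these means were 1180 in Slc26a4+/+ and 4 in Slc26a4-/- IMC-like cells, and 2312 and 1 in pendrin cells. Relative to the total counts of each pool, the ratio of Slc26a4+/+ to Slc26a4-/- was 213.98 in IMC-like cells (counting interval 83.4 to 787). In RC-like cells, with 1549 counts against 1, it was 1850 (331 to 73105). These counting intervals treat amplified reads as independent and leave out the spread between cells, so they are too narrow. Nearly all of the Slc26a4+/+ counts came from the few cells with at least 10 counts. In SC-like cells, 763 counts stood against 0. With 3 counts over the Slc26a4-/- group as the floor, Slc26a4+/+ was 31.3-fold higher, and the lower limit of the counting interval was 25.4-fold. The whole Slc26a4-/- signal came from 5 cells with at least 1 count, of which 4 held 5 counts together. The fifth, with 434 counts and 94.5 CPM, belonged to the Crhbp-led cluster, was collected at P42, and was the only Slc26a4-/- cell of batch 1.

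In Slc26a4+/- mice, Cdkn1c was present. At least 10 counts were found in 7 of 40 cells (17.5%, 7.34% to 32.8%) and in 1 of 69 Slc26a4-/- cells (1.45%, 0.0367% to 7.81%). Slc26a4+/- pendrin cells had a mean of 101.9 CPM with 3 of 8 cells at 10 counts or more (37.5%, 8.52% to 75.5%), against 9 of 38 Slc26a4+/+ cells (23.7%, 11.4% to 40.2%). Slc26a4+/- IMC-like cells had 8.40 CPM with 2 of 23 cells (8.70%, 1.07% to 28.04%). The pendrin value rests on 1 session at P28 with RC-like cells at 382 and 390 CPM, and without it the log2 difference from Slc26a4+/+ cells went from 0.77 to -5.77.

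**Figure D2:**
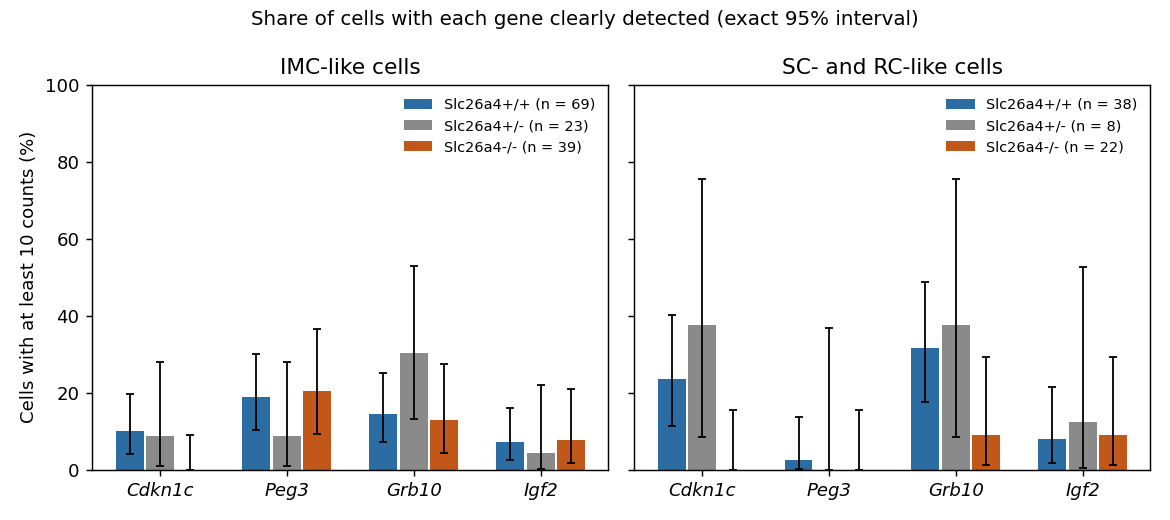
Shares of cells with each gene. Bars give the percentage of cells with at least 10 counts (vertical axis, from 0 to 100%) for 4 genes (horizontal axis) in IMC-like cells and in SC- and RC-like cells of the 3 genotypes, and the error bars are exact binomial 95% intervals. Cdkn1c is at 0 in both panels for Slc26a4-/-, while Peg3 in IMC-like cells is at 18.8% for Slc26a4+/+ and 20.5% for Slc26a4-/-.

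Cdkn1c was listed for this gap, so the values below, by depth and by run date, describe the same cells again. When each cell was thinned to 100000 counts, leaving out shallower cells (20 Slc26a4+/+ cells), at least 1 Cdkn1c count remained in 29 Slc26a4+/+ cells (19.1%), 8 of 40 Slc26a4+/- cells (20.0%) and 1 of 69 Slc26a4-/- cells (1.45%). Within batch 2, at least 10 counts were present in 4 of 26 Slc26a4+/+ and 0 of 46 Slc26a4-/- cells. Within batch 4 the numbers were 6 of 19 Slc26a4+/+, 7 of 40 Slc26a4+/- and 0 of 22 Slc26a4-/- cells. The difference in IMC-like cells was -3.86 within batch 2 and -4.50 within batch 4 on the log2 scale, and in pendrin cells -6.12 and -6.89. Single cells carry these values, since batch 2 held 1 IMC-like and 1 pendrin cell of Slc26a4+/+ mice with at least 10 counts. The pendrin groups were small, with 3 Slc26a4+/+ against 15 Slc26a4-/- cells in batch 2. In batch 4, 3 SC-like and 5 RC-like Slc26a4+/+ cells stood against 7 Slc26a4-/- cells that were all RC-like.

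Session by session, the Slc26a4+/+ mean of Cdkn1c ran from 0 to 527 CPM with a median of 20.8 CPM, and 13 of 23 sessions had a cell with at least 10 counts while 7 sessions were at 0. The highest, a session of 22 cells at P23, holds the cell of 10134 counts at 11052 CPM. The next stood at 249.8 CPM and had 3 cells. The 4 Slc26a4+/- sessions stood at 8.41, 13.2, 18.7 and 90.7 CPM. Of the 10 Slc26a4-/- sessions, 7 were at 0 and 2 were at 0.10 and 0.15 CPM, and the session that consists of the single batch 1 cell stood at 94.5 CPM. The genotypes thus overlap at 0, where sessions of Slc26a4+/+ and Slc26a4-/- mice both lie, and the 4 Slc26a4+/- sessions all lie above the Slc26a4-/- sessions of batches 2 and 4.

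**Figure D3:**
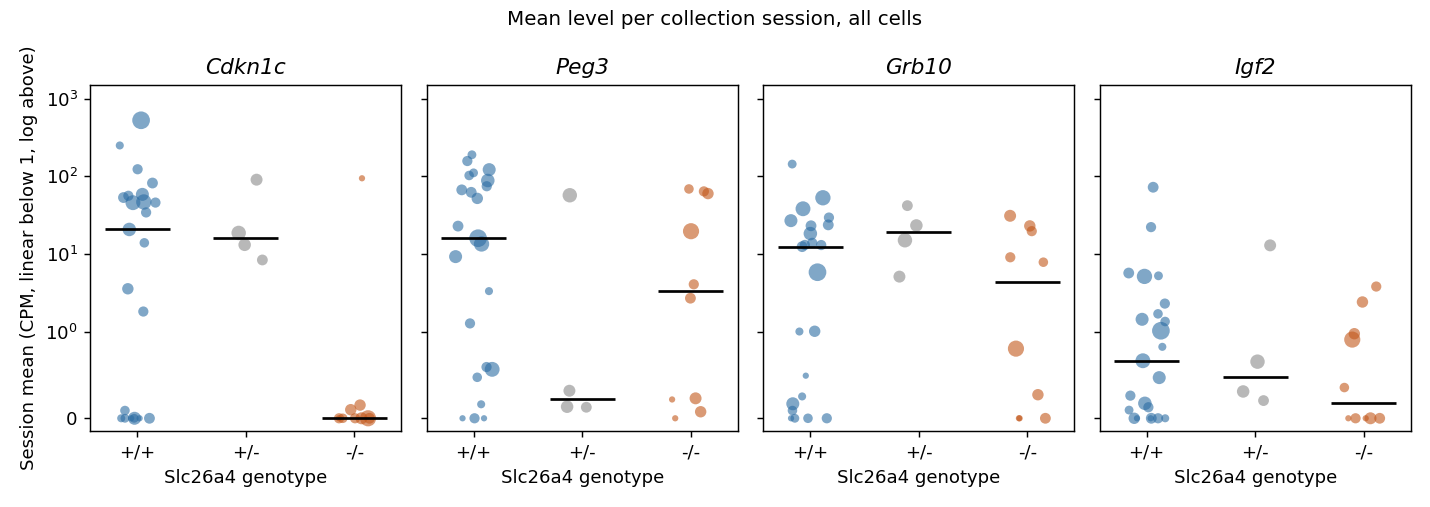
Session means of 4 imprinted genes. Each point is the mean CPM of all cells of 1 collection session (vertical axis, linear below 1 and logarithmic above) by genotype (horizontal axis), its area grows with the number of cells, and the black line is the median of the sessions. For Cdkn1c, 9 of 10 Slc26a4-/- sessions are at or below 0.15 CPM, while Peg3 and Grb10 reach 68.9 and 31.1 CPM in that genotype.

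How unusual such a pattern is among genes was counted after the data had been seen. Of 9147 genes with at least 10 counts in at least 10% of Slc26a4+/+ cells, 25 (0.273%) had this in under 2% of Slc26a4-/- cells, and Cdkn1c was among them because it was chosen for that. Several of the others, such as Rpl34-ps1, Rps2-ps6 and Gm8210, are named as pseudogenes or predicted genes, and their reads may be shared with near-identical copies. In Slc26a4+/- cells the limit of 2% was met by 5 genes (0.0547%), and Cdkn1c was not one of them. The 2 shares are not alike, since the limit allows 1 of 69 Slc26a4-/- cells, as for Cdkn1c, but none of 40 Slc26a4+/- cells. Slc26a4+/- cells were also deeper, at a median of 2221967 against 1226474 counts. Within IMC-like cells the share of 9075 genes was 0.551% for Slc26a4-/- and 1.18% for Slc26a4+/- mice, and within the fewer pendrin cells the share of 9825 genes was 2.39% and 7.23%.

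The 5 annotated transcripts of Cdkn1c were quantified, and the counts lay mostly on the coding forms Cdkn1c-201 (58.5%) and Cdkn1c-202 (23.4%), while the retained-intron form took 5.18%. Cdkn1c-201 had 4078 counts among the cells of Slc26a4+/+ mice, 2002 among those of Slc26a4+/- mice and 431 among those of Slc26a4-/- mice, nearly all of the last from the 1 cell of the Crhbp-led cluster. Cdkn1c overlaps Gm44732 on the other strand, and since Smart-Seq2 does not keep the strand, RNA from the 2 genes cannot be told apart.

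Markers of other cell types differed between the same groups. In pendrin cells, the summed level of the 6 pericyte markers ranged from 0 to 22911 CPM (mean 2389) in Slc26a4+/+ and from 0 to 156.8 CPM (mean 14.5) in Slc26a4-/- cells, with 2 of the 6 genes at a mean of at least 5 CPM in each genotype and Kcnj8 at 0 in both. Rgs5 of that list was also among the leading genes of the SC-like cluster. The summed SC markers in pendrin cells had a mean of 23841 CPM in Slc26a4+/+ and 5042 CPM in Slc26a4-/- cells, and SC-like cells of Slc26a4-/- mice all came from batch 2. The paper names Rgs5, and Anxa1 and Wfdc18 of the SC markers, among genes lower in pendrin cells of Slc26a4-/- mice. These sums do not separate such genes from other cells. In IMC-like cells, the marginal cell markers had a mean of 1102 CPM in Slc26a4+/+ and 339 CPM in Slc26a4-/- cells, and the erythroid markers 386 and 35.6 CPM. Few cells set that Slc26a4+/+ erythroid mean, with a median of 11.1 CPM and a highest value of 21253 CPM. Other lists had a higher mean in Slc26a4-/- cells. The pericyte markers in IMC-like cells had 121.9 CPM in Slc26a4+/+ and 548.8 CPM in Slc26a4-/- cells. The endothelial markers in pendrin cells had 86.1 and 198.9 CPM, and the marginal cell markers in SC-like cells 5146 and 8929 CPM. The part of these markers in the Cdkn1c difference was not tested. IMC-like cells fell into 2 clusters, the second of which had a mean of 517 CPM of the collagen gene Col1a1. Such a mean can rest on few cells and need not describe a typical cell of that cluster. Summed fibrocyte markers in Slc26a4+/+ IMC-like cells had a median of 12.7 CPM and a highest value of 22784 CPM. For Slc26a4+/+ against Slc26a4-/- cells, Cdkn1c was 16.5 against 0.06 CPM in the first cluster and 26.1 against 0 CPM in the second.

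Of the 10 listed genes, Peg3 had the most counts, and it was found mainly in IMC-like cells. Its mean level in Slc26a4+/+ cells was 24.3 TPM in IMC-like cells, 3.68 TPM in MC-like, 1.73 TPM in RC-like and 0.07 TPM in SC-like cells, and 30.8 TPM in the Crhbp-led cluster, where 2 of 11 cells had at least 10 counts. At least 10 counts were present in 13 of 69 IMC-like cells (18.8%, 10.4% to 30.1%) and in 1 of 38 pendrin cells (2.63%, 0.0666% to 13.8%). These intervals overlap slightly, and since the clusters were built from the same cells the difference between types carries no test.

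Peg3 stayed present in mutant IMC-like cells. Its mean was 78.8 CPM in Slc26a4+/+, 34.7 CPM in Slc26a4+/- and 40.8 CPM in Slc26a4-/- cells, with at least 10 counts in 8 of 39 Slc26a4-/- cells (20.5%, 9.30% to 36.5%) and in 2 of 23 Slc26a4+/- cells (8.70%, 1.07% to 28.04%). The log2 difference of Slc26a4-/- from Slc26a4+/+ IMC-like cells was -0.93 over all cells, 0.12 within batch 2 and -0.67 within batch 4. Session means ran from 0 to 190 CPM with a median of 16.02 CPM in Slc26a4+/+, and from 0 to 68.9 CPM with a median of 3.40 CPM in Slc26a4-/- mice. The 4 Slc26a4+/- sessions stood at 0.13, 0.13, 0.32 and 57.2 CPM, so that 1 session held all 3 cells with at least 10 counts. In the second IMC-like cluster, Peg3 was 89.96 CPM in 29 Slc26a4+/+ cells and 0.55 CPM in 12 Slc26a4-/- cells, whereas in the first it was 70.7 and 58.6 CPM.

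Of the Peg3 counts, 28.4% lay on the coding transcript of 8694 bases, 35.9% on a transcript of 3252 bases annotated for nonsense-mediated decay, and 35.6% on a retained intron of 4816 bases. The coding transcript was spread over more cells, with at least 1 count in 69 cells against 18 and 43 cells for the other two. These 3 transcripts begin within a few bases of the 3′ end of the Peg3 sequence printed above.

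Grb10 was highest per length in SC-like cells. In Slc26a4+/+ cells its mean was 45.2 TPM in SC-like, 20.8 TPM in RC-like, 10.6 TPM in IMC-like and 0.535 TPM in MC-like cells, and 27.7 TPM in the Crhbp-led cluster. At least 10 counts were present in 9 of 23 SC-like cells (39.1%, 19.7% to 61.5%), in 3 of 15 RC-like cells (20.0%, 4.33% to 48.1%) and in 10 of 69 IMC-like cells (14.5%, 7.17% to 25.04%). In MC-like cells it was 0 of 14, with a limit of 21.4% as 3 divided by the number of cells. Neighbours in that order overlap in their intervals.

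**Figure D4:**
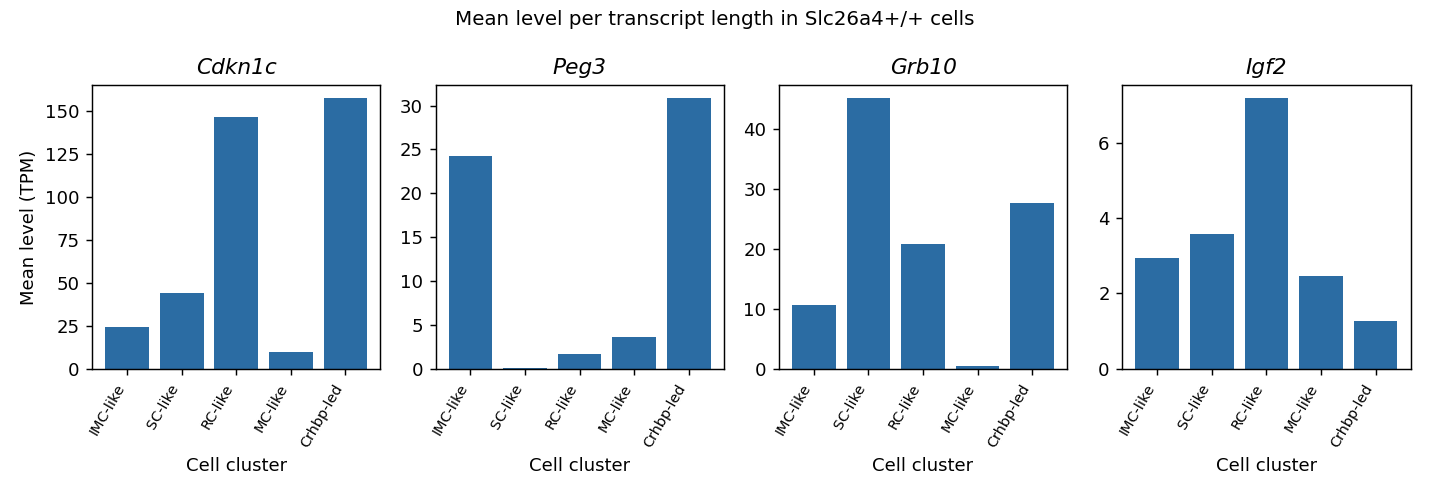
Levels per transcript length in Slc26a4+/+ cells. Bars give the mean TPM over cells (vertical axis, from 0, with its own scale for each gene) by cell cluster (horizontal axis), without error bars because a genotype is 1 sample. Cdkn1c and Igf2 are highest among the named types in RC-like cells (146.5 and 7.18 TPM), Peg3 in IMC-like cells (24.3 TPM) and Grb10 in SC-like cells (45.2 TPM).

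Slc26a4-/- cells had less Grb10 on average over all batches, but not in each batch. In pendrin cells the mean was 37.7 CPM in Slc26a4+/+, 11.5 CPM in Slc26a4+/- and 7.80 CPM in Slc26a4-/- cells, with at least 10 counts in 12 of 38 (31.6%, 17.5% to 48.7%), 3 of 8 (37.5%, 8.52% to 75.5%) and 2 of 22 cells (9.09%, 1.12% to 29.2%). The log2 difference of Slc26a4-/- cells was -2.14, and -1.71 and -1.10 within batches 2 and 4, and 1 cell made up 68.1% of the Slc26a4-/- level. In IMC-like cells the means were 21.98, 22.97 and 6.21 CPM in the order above, and the log2 difference of Slc26a4-/- cells was -1.67 over all, -4.00 within batch 2 and 0.48 within batch 4. A single cell made up 37.9% of the level in Slc26a4+/+ IMC-like cells. Session means ran from 0 to 143.97 CPM (median 12.5) in Slc26a4+/+, from 5.14 to 42.05 CPM (median 19.2) in Slc26a4+/- and from 0 to 31.1 CPM (median 4.34) in Slc26a4-/- mice, and the 3 ranges overlap.

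The Grb10 transcript from the CG-rich upstream start (5061 bases) took 43.2% of the Grb10 counts of Slc26a4+/+ mice, 49.2% of Slc26a4+/- and 49.03% of Slc26a4-/- mice. The transcript from the inner start (4755 bases) took 14.7%, 25.99% and 18.3%. Both were read in all 3 genotypes, with at least 10 counts of the first in 19, 10 and 8 cells and of the second in 13, 8 and 5 cells. A transcript annotated as processed (3341 bases) held 1465 counts, of which 1356 were in Slc26a4+/+ IMC-like cells, 0 in Slc26a4+/- and 3 in Slc26a4-/- cells. With TPM in place of CPM, Grb10 was not lower by 2-fold in Slc26a4-/- IMC-like cells.

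Among Slc26a4+/+ cells, Igf2 was low in the named types and highest in the cluster led by Slc4a1 and Mpo, at a mean of 19.9 TPM, where 1 cell at 435 CPM made up 66.8% of the summed CPM. Its mean in Slc26a4+/+ cells was 7.18 TPM in RC-like, 3.57 TPM in SC-like, 2.95 TPM in IMC-like and 2.45 TPM in MC-like cells, and at least 10 counts were present in 11 Slc26a4+/+ cells (6.40%), 3 of 40 Slc26a4+/- cells (7.5%) and 5 of 69 Slc26a4-/- cells (7.25%). Most of its counts, 67.6%, lay on a processed transcript of 958 bases, with at least 10 counts in 17 cells, whereas no coding form had 10 counts in more than 3 cells. Plagl1 had at least 10 counts in 3 cells, all of Slc26a4+/+ mice (2 SC-like cells, the higher at 37.2 CPM, and 1 RC-like cell at 8.91 CPM), and Dlk1 had at least 10 counts in 1 cell, an RC-like cell of a Slc26a4-/- mouse at 3.95 CPM.

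The measured genes were not carried by the same cells throughout. Of the Slc26a4+/+ cells, 24 had at least 10 counts of Cdkn1c, 27 of Grb10 and 21 of Peg3, and 10 had both Cdkn1c and Grb10, 1 had both Cdkn1c and Peg3, and 0 had both Peg3 and Grb10. All 4 SC-like cells with Cdkn1c also had Grb10. These are counts of cells that share their libraries and their cell types, and no test of the overlap was made.

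Counting members past a 2-fold difference, with a mean of at least 5 CPM in either genotype, 3 of the 10 genes (Cdkn1c, Peg3 and Grb10) could be counted in IMC-like cells and 2 (Cdkn1c and Grb10) in pendrin cells. In Slc26a4-/- IMC-like cells 2 were lower and 0 higher, where 19.3% of 10774 genes were lower and 11.8% higher. In Slc26a4-/- pendrin cells 2 were lower and 0 higher, where 23.7% of 11529 genes were lower and 16.5% higher. The contrast chose the list, and nothing is read from these shares. The median difference over all such genes was -0.16 in IMC-like and -0.14 in pendrin cells.

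Most neighbours of Cdkn1c with at least 5 CPM were still present in mutant cells. Of 13 genes listed for the imprinted Kcnq1 domain, 12 were quantified. Kcnq1, the potassium channel of marginal cells within which Kcnq1ot1 lies, was at 232.9 CPM in Slc26a4+/+ and 268.5 CPM in Slc26a4-/- pendrin cells (0.20 on the log2 scale, with 1.42 for SC-like cells alone and -2.03 for RC-like cells alone) and at 9.13 and 7.79 CPM in IMC-like cells (-0.21). Kcnq1ot1 RNA, if read, cannot be told apart from Kcnq1 introns in such libraries. Nap1l4, which encodes a histone chaperone, differed by 0.30 in IMC-like and -0.45 in pendrin cells, and Cd81, which encodes a tetraspanin, by -0.43 and -0.37.

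In Slc26a4-/- IMC-like cells, 8 genes of the domain had at least 5 CPM, of which 3 were lower by 2-fold or more (Cdkn1c, Trpm5 at -3.10 and Tssc4 at -1.17) and 1 was higher (Osbpl5 at 1.72), with a median of -0.32. Cars, a tRNA synthetase gene, was at -0.10. In pendrin cells, 9 had at least 5 CPM, 5 were lower (Cdkn1c, Osbpl5 at -3.94, Tspan32 at -3.32, Tssc4 at -1.22 and Cars at -1.09) and 0 higher, with a median of -1.09, and Slc22a18, which lies next to Cdkn1c, was at -0.73 over all batches but at 3.24 and 5.43 within batches 2 and 4. Of all genes with at least 5 CPM, 19.3% were lower and 11.8% higher in IMC-like cells, and 23.7% and 16.5% in pendrin cells. Within batches the differences did not hold their sign for Slc22a18 or for Tssc4, which stood at -0.26 and 0.56 in IMC-like cells and at 3.89 and -1.58 in pendrin cells within batches 2 and 4. Trpm5 in IMC-like and Tspan32 in pendrin cells had at least 10 counts in 2 Slc26a4+/+ cells each, and both were at 0.00 within batch 2. In pendrin cells Osbpl5 was at 0.00 within batch 2 and -2.24 within batch 4, and Cars at -1.87 and -0.10. Cdkn1c was the member of the domain that was lower by over 3 on the log2 scale in both cell groups and in both batches. It was listed for that drop, so its standing out in this way was fixed in advance. Genes with a low mean in Slc26a4+/+ cells could not be lower by that much once 1 CPM is added.

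Within 500 kb on either side of Cdkn1c, 44 genes are annotated and 21 were quantified. In IMC-like cells, 13 had at least 5 CPM, of which 3 were lower and 3 higher in Slc26a4-/- cells, and in pendrin cells 13 had it, of which 5 were lower and 2 higher. Shares over all such genes were 19.3% lower and 11.8% higher in IMC-like cells, and 23.7% and 16.5% in pendrin cells. Dhcr7, the last enzyme of cholesterol synthesis, was higher in both groups, by 1.29 in IMC-like cells (42.1 against 104.3 CPM) and by 2.40 in pendrin cells (5.36 against 32.6 CPM), and within batches 2 and 4 by 2.22 and 1.62 and by 4.88 and 1.36. Tnfrsf23, a decoy receptor gene, was higher by 2.06 and 2.16, at 6.58 and 6.55 CPM in Slc26a4-/- cells. The others with at least 5 CPM, Tnfrsf22, Mrgpre and Nadsyn1, differed by less than 2-fold over all batches but not within them. Within batches 2 and 4, Tnfrsf22 was at -1.20 and -2.05 in IMC-like and at -1.11 and -3.06 in pendrin cells. Mrgpre was at 1.45 and 3.43 in IMC-like cells, and Nadsyn1 at 0.52 and 2.76 in IMC-like and at 0.87 and -1.10 in pendrin cells.

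**Figure D5:**
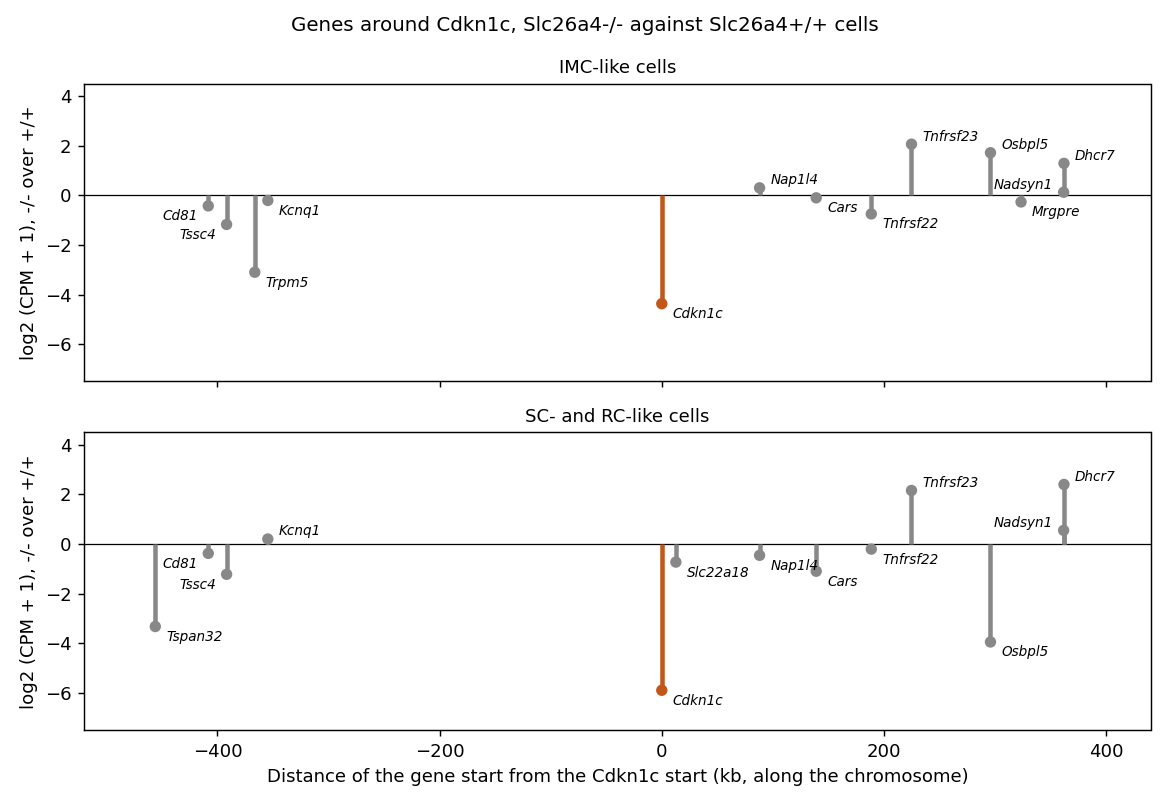
Genes around Cdkn1c. Each stem is a gene with a mean of at least 5 CPM, placed by the distance of its start from the Cdkn1c start in kb (horizontal axis), and its height is the log2 ratio of mean CPM + 1 of Slc26a4-/- over Slc26a4+/+ cells (vertical axis), in IMC-like cells above and SC- and RC-like cells below. Cdkn1c (orange) is at -4.37 and -5.89, and genes on both sides of it lie above and below 0.

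Other inhibitors of cyclin-dependent kinases were present in mutant cells. In IMC-like cells, Cdkn1a (p21) was at 43.6 CPM in Slc26a4+/+ and 87.9 CPM in Slc26a4-/- cells (0.99), Cdkn1b (p27) at 21.3 and 40.3 CPM (0.89) and Cdkn2d (p19) at 32.1 and 38.8 CPM (0.27). Of the 7 inhibitors quantified, 4 had at least 5 CPM there, of which 1, Cdkn1c, was lower by 2-fold and 0 were higher. Background shares there were 19.3% of genes lower and 11.8% higher. Within batches 2 and 4, Cdkn1a differed by -0.12 and 0.54 and Cdkn1b by 1.47 and -0.98.

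In Slc26a4-/- pendrin cells, 5 inhibitors had at least 5 CPM, of which Cdkn1c and Cdkn2b (-2.30) were lower and Cdkn2d (1.87) was higher, while Cdkn1a was at -0.53 and Cdkn1b at -0.51. Background shares in these cells were 23.7% of genes lower and 16.5% higher. Cdkn2b was at -6.19 within batch 2 and 0.25 within batch 4. In Slc26a4+/- IMC-like cells, Cdkn1b was at 60.01 CPM (1.45) and Cdkn2d at 81.2 CPM (1.31), and background shares there were 23.3% of genes lower and 12% higher. In Slc26a4+/- pendrin cells, Cdkn1c was at 0.77 and Cdkn1b at 0.20, where 30.2% of genes were lower and 19.6% higher. Cdkn2a was at 0 in IMC-like and pendrin cells of Slc26a4+/+ and Slc26a4+/- mice.

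Among cyclins, their kinases and genes of dividing cells, 9 of 15 had at least 5 CPM in IMC-like cells, and 2 were lower and 2 higher in Slc26a4-/- cells. Ccnd1, the cyclin of the G1 phase, was at 10.9 CPM in Slc26a4+/+ and 97.7 CPM in Slc26a4-/- cells (3.05, and 6.48 and 2.95 within batches 2 and 4). Mcm2, a subunit of the replicative helicase, was higher by 1.13, Top2a was at -1.43 and Cdk6 at -1.34. In pendrin cells 9 had at least 5 CPM, with 2 lower (Ccna2 at -3.63 and Cdk2 at -1.38) and 3 higher (Mcm2 at 2.74, Cdk6 at 2.5 and Ccnd1 at 1.75, 6.12 against 22.97 CPM). The median of the list was -0.03 in IMC-like and -0.40 in pendrin cells. Over all genes with at least 5 CPM, 19.3% were lower and 11.8% higher in IMC-like cells, and 23.7% and 16.5% in pendrin cells. Nothing is read from the counts of so short a list. The pendrin values pool cell types of unequal mix, 15 RC-like and 23 SC-like cells in Slc26a4+/+ against 13 and 9 in Slc26a4-/- mice, and the types differed. Among RC-like cells alone 0 of 9 genes were lower and 6 higher (median 2.85), and among SC-like cells alone 3 of 10 were lower and 3 higher (median -0.54). How many of all genes passed 2-fold was not counted within these types, so nothing is read from these numbers. The median over all genes with at least 5 CPM was -0.06 in RC-like and -0.29 in SC-like cells. Batch 2 held 1 Slc26a4+/+ and 6 Slc26a4-/- RC-like cells.

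For the IGF and insulin pathway, in which Igf2 is a ligand and Grb10 an adaptor, 10 of 20 quantified genes had at least 5 CPM in IMC-like cells. Of these, 3 were lower in Slc26a4-/- cells (Irs2 at -2.22, Grb10, and the ligand Igf1 at -1.45) and 2 were higher (the adaptor Irs1 at 2.41, 45.2 against 244.4 CPM, and the binding protein Igfbp4 at 1.33). Igf1 had opposite signs within batches 2 and 4 (1.87 and -3.98). In pendrin cells 13 had at least 5 CPM, of which 2 were lower (Grb10, and Igf2bp1 at -1.84) and 4 higher, among them Igfbp4 at 1.92 and Grb14, a relative of Grb10, at 1.23. The shares over all genes with at least 5 CPM were 19.3% lower and 11.8% higher in IMC-like cells, and 23.7% and 16.5% in pendrin cells. Among RC-like cells alone 5 of 13 were lower and 1 higher, and among SC-like cells alone 4 of 13 were lower and 6 higher. As above, how many of all genes passed 2-fold was not counted within these types, so nothing is read from these numbers.

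Of 33 other imprinted genes that were quantified, 16 had at least 5 CPM in IMC-like cells, with 4 lower (Peg10 at -3.32, Dcn at -3.07, Ppp1r9a at -2.01 and Ube3a at -1.28), 1 higher (Zrsr1 at 2.03) and a median of 0.07. Peg10 was at 0 in Slc26a4-/- IMC-like cells, so that its value depends on the pseudocount. In pendrin cells 18 had it, with 5 lower, including Sgce at -3.36, Mkrn3 at -3.32, Gatm at -3.15 and Dcn at -3.11, 1 higher (Nnat at 2.61) and a median of -0.36. Among all genes with at least 5 CPM, 19.3% were lower and 11.8% higher in IMC-like cells, and 23.7% and 16.5% in pendrin cells. The remaining imprinted regions held few genes with at least 5 CPM, namely Mrpl23 near H19 (1.70 in IMC-like and -0.45 in pendrin cells), Wars near Dlk1 (0.12 and 0.30) and Peg3 itself among the genes of its own region.

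Over the 12 groups of cell type and genotype with at least 5 cells, the genes whose log2 mean levels were most like those of Cdkn1c among 13258 genes were Rps23 (Pearson r 0.95), Rps18 (0.94), H2afv (0.93), Tpm3-rs7 (0.92) and Rps13-ps1 (0.91). These 12 groups share libraries and depth, and r is a description. They include the Slc26a4-/- groups, whose near-0 Cdkn1c chose the list. A high r therefore favors genes that were also low in those groups, as these 5 genes were, and nothing is read from it. The ribosomal protein genes and the retrogene and pseudogene of the list have many near-identical copies in the genome, among which reads can be split, so their values are uncertain. Rps23, Rps18 and H2afv still had at least 10 counts in 39, 27 and 35 of 69 Slc26a4-/- cells, whereas Tpm3-rs7 and Rps13-ps1 had it in 2 and 5 of them, against 77 and 84 Slc26a4+/+ cells. Among the imprinted genes, r with Cdkn1c was 0.65 for Igf2, 0.35 for Grb10 and 0.24 for Peg3.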

How the data were processed

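Single cells of the stria vascularis were profiled with Smart-Seq2 of 3 Slc26a4 genotypes. The authors assigned reads to the transcriptome (GRCm38, mm10) with kallisto, whose version is not given in the sources used here, and deposited estimated counts and TPM for 98492 transcripts per cell. They also deposited estimated counts for 47752 genes, in which 17 columns of cells not studied here were left unused. Counts were divided by the total of a cell (CPM), and TPM was summed per gene with GENCODE M21, which lacked 1288 transcripts (median 0.635% of counts). Lines without a gene name held 0% of counts.

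Cells were clustered with Seurat 5.3.0 in R 4.3.3, on 1893 of 2000 variable genes (10 components, resolution 0.8), leaving out the imprinted genes listed and genes that the study names or lists as differing. This left-out list was shortened after a first clustering had mixed intermediate-cell-like with blood-like cells. Clusters were named from fixed markers. Markers of 1 list had to score highest in at least 80% of the cells. As cells were picked singly, no doublet caller was run. No 2 cells had identical counts, and 31 cells had a second marker score within 0.25 of the first. Cells of a genotype counted as 1 sample, and differences are log2 ratios of means after adding 1 CPM, with no test. A gene was counted as lower or higher from a 2-fold difference, with a mean of at least 5 CPM in either genotype. At least 10 counts in a cell was taken as clear detection, and shares have exact binomial (Clopper-Pearson) intervals at 95%. For a 0, of counts or of cells, 3 was taken as the floor or limit. Depth from 1848 to 7932729 counts per cell limits low genes. Named were the imprinted genes listed, the Kcnq1 domain, the kinase inhibitors, up to 4 genes of other lists by size of difference, genes within 500 kb of Cdkn1c at 5 CPM or more, and the 5 genes most like Cdkn1c. The genes and lists were chosen with earlier results of these data known. Steps were tested on simulated data, with Python 3.11.15, numpy 2.4.6, pandas 2.3.3 and scipy 1.17.1.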

Additional observations from a re-analysis of the deposited data

Results flagged for a closer look

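Means of 4 genes per session were examined in 8 groups of 4 to 10 sessions, and in 4 of them the highest session stood apart from the rest. The limit for such a gap is passed in about 1 group of 20 when values are normally distributed. Session means here are skewed, many lie at or near 0, and some rest on 1 cell, so that rate does not apply. Nothing is read from the number of groups flagged. Cdkn1c in Slc26a4-/- mice reached 94.5 CPM in the session that is 1 cell of the Crhbp-led cluster at P42, where the next session stood at 0.15 CPM. In Slc26a4+/- mice, Cdkn1c reached 90.7 CPM in the P28 session with RC-like cells at 382 and 390 CPM, and the next session stood at 18.7 CPM. Igf2 in Slc26a4+/- mice reached 12.97 CPM in 1 session against 0.66 CPM in the next, and Peg3 reached 57.2 CPM against 0.32 CPM.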

How the results depend on the processing

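The lower level of Cdkn1c in Slc26a4-/- cells kept its direction under each alternative run. In IMC-like cells the difference of -4.37 went to -0.80 as the mean of log2 values over cells, to -7.18 with a pseudocount of 0.1 CPM and to -7.15 with cell types from the highest marker score, which adds the Slc26a4+/+ cell of 10134 counts with 11052 CPM. With that score and cells of at least 100000 counts, an alternative chosen after seeing the data, it was -4.78. In pendrin cells the difference of -5.89 went to -1.86 as the mean of log2 values and was -3.79 with the marker score. Without each session in turn it ranged from -4.54 to -3.99 in IMC-like and from -5.97 to -5.59 in pendrin cells. For Slc26a4+/- IMC-like cells, -1.20 went to -4.03 with the marker score and to -4.00 in the second IMC-like cluster alone (3 Slc26a4+/- cells, chosen after seeing the data), and ranged from -2.08 to -0.46 without each session in turn. For Slc26a4+/- pendrin cells, 0.77 ranged from -5.77 to 1.18, and -5.77 is the value without the P28 session with both high RC-like cells. The 2 imprinted genes lower by 2-fold in Slc26a4-/- IMC-like cells became 0 as the mean of log2 values, and 1, Cdkn1c, with TPM, with a pseudocount of 10 CPM, within batch 4 and with median-of-ratios size factors. Without each session in turn they ranged from 2 to 3 in IMC-like cells and stayed at 2 in pendrin cells, where means over sessions left 1, Cdkn1c. The count of higher genes was 0 throughout. The 4 highest named types of the measured genes in Slc26a4+/+ cells were kept for 2 of them with the marker score, which put Cdkn1c and Igf2 highest in IMC-like cells. Where no cause is named, the cause was not tested. Slc26a4+/- cells were all in batch 4, so that no value exists within batch 2 or without batch 4. No paired analysis was possible because the labels number cells and not mice, and no result comes from a test.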
